A study of Mus musculus with 12 samples.

Results

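In the female KDM6A-WT line of a mouse pancreatic cancer series, 24315 of 56076 H3K4me1 regions carried no region of H3K27ac, H3K4me3 or H3K27me3, the pattern usually called a primed enhancer. A member is a region of the female WT list of H3K4me1 that shares not even 1 bp with the lists of those other marks in the same line. The 11 region lists of the series held 313566 regions in all. The choice used 4 lists of female WT, so the absence of the other marks is part of the definition and not a result. The lists came from chromatin immunoprecipitation with sequencing (ChIP-seq) of untreated pancreas cancer cell lines grown in F12/DMEM with EGF. H3K4me1 was profiled in a female KDM6A-KO line, a male KDM6A-KO line, the female KDM6A-WT line and a male KDM6A-WT line. For KDM6A and MLL4 (antibody field KMT2D) both female lines were profiled, and for H3K27ac, H3K4me3 and H3K27me3 female WT. Every label, those of the WT lines included, calls the cells a line made from a Kdm6a-null tumour, so the genotype is used as its own field gives it. The labels give no allele, promoter, Cre or age. Each group held 1 library, so no difference between libraries could be tested. Bracketed ranges are exact Clopper-Pearson intervals at 95% for shares and Newcombe intervals for differences. They cover counting error over regions, which are not replicates.

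H3K4me1 is the histone mark laid down at enhancers by the related methyltransferases MLL3 and MLL4. KDM6A, also called UTX, is a subunit of their complexes and removes methyl groups from H3K27me3, the mark of Polycomb silencing. An enhancer that carries H3K4me1 without H3K27ac, the mark of active elements, is described as primed: it is marked but not active. With H3K27me3 in place of H3K27ac it is described as poised.

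The H3K4me1-alone regions were short and had few reads. They made up 43.4% of the H3K4me1 regions of female WT, 31.1% of the covered length (71.2 Mb) and 25.5% of the reads in regions. Their median length was 2400 bp, with quartiles of 1600 and 3600 bp and extremes of 200 and 35400 bp. The other 31761 H3K4me1 regions had a median of 3200 bp. Members held a median of 75 reads (15 to 2141), against 122 in the others, and a median of 32.5 reads per kb, against 38.4. The reads in listed regions numbered 6639207 for H3K4me1 of female KO, 10809880 for male KO, 9956349 for female WT and 14411335 for male WT. The numbers of H3K4me1 regions were 35041 in female KO, 49780 in male KO and 64247 in male WT. Library depth is not given in the sources used here, and absence from a list means that no region was called there, not that the mark was missing.

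Many members lay close to active chromatin without touching it. The median gap to the nearest H3K27ac region was 15200 bp, with quartiles of 5400 and 46600 bp, and 23.1% of the members had one within 5 kb. H3K4me3 regions were farther away, at a median of 22600 bp, and H3K27me3 regions were farthest, at 91400 bp. An H3K4me1 region that was no member lay within 5 kb of 30.2% of the members, and another member lay within 5 kb of 38.9%. At the edge of the rule, 1811 members had 1 of the other marks at most 1 kb away, some of them adjoining it. Their median was 68 reads, 37.0% of them were kept in female KO, and 70.2% in male WT. Just outside the rule, 212 regions shared at most 200 bp with the other marks, with a median of 59 reads, and 36.8% of these were kept in female KO and 73.1% in male WT. Where the mark so shared was H3K27ac alone, 56.7% [44.0 to 68.8] of 67 regions were kept in female KO and 71.6% in male WT. The name primed enhancer rests on the rule and has no further support here. Whether a member lies in a promoter, in an intron or between genes was not analysed here.

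Most H3K4me1-alone regions of female WT were missing from the KO lists. Female KO lacked 20169 of the 24315, or 82.9% [82.5 to 83.4], where 51.1% of all H3K4me1 regions of female WT were missing. Male KO lacked 68.8% [68.2 to 69.4], against 39.0% of all regions. Male WT, the same genotype label in another line, lacked 36.7% [36.1 to 37.3], against 22.3% of all regions. With compared lists cut to their upper part by reads, the share missing from male WT was 62.5%. Male KO was also set against male WT, among the 15392 members listed in male WT. It lacked 59.5% [58.7 to 60.2] of these, against 29.7% of all H3K4me1 regions so chosen. Female KO lacked 77.2% [76.5 to 77.9] of the same members, against 42.4% of all regions listed in male WT. Among the 8923 members that male WT lacked, male KO held 15.1% [14.4 to 15.9], against 28.9% of all regions that male WT lacked. With all 4 H3K4me1 lists at the same number of regions, which left 12509 members, the share missing from female KO was 80.4% and that from male KO among members of male WT was 61.9%.

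Absence from female KO was 43.8 percentage points [42.5 to 45.1] more frequent for members than for the 6474 regions with H3K27ac and neither other mark, the active distal enhancers, of which 39.1% were missing. The corresponding difference in male KO, among regions of male WT, was 39.5 points [38.3 to 40.8], with 19.9% of the active distal regions missing. Male WT lacked 5.05% of the active distal regions. The difference from active distal regions was also present within classes of reads. In the class of 15 to 57 reads female KO lacked 85.8% of the members and 42.5% of the active distal regions, at medians of 42 and 44 reads. In the middle class it lacked 83.9% and 42.6%, at medians of 76 and 78 reads. In the class of 103 reads or more it lacked 79.0% and 37.1%, but the medians of 155 and 219 reads were not alike. The 3429 poised regions, with H3K27me3 alone, were missing from the KO lists more often still. Absence of members minus absence of poised regions was -3.34 points [-4.55 to -2.06] in female KO, which lacked 86.3% of the poised regions. In male KO, among regions of male WT, it was -14.4 points [-16.3 to -12.4], with 73.8% of the poised regions missing. From male WT the order was the other way, with members missing 7.16 points more often [5.49 to 8.78] than the 29.5% of poised regions.

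**Figure D1:**
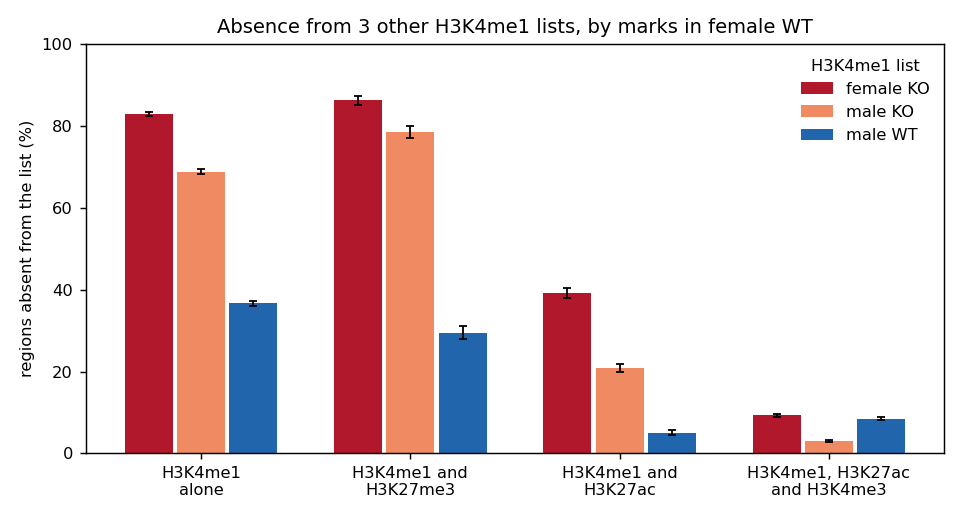
Share of female WT H3K4me1 regions (%, vertical axis) that are absent from the H3K4me1 lists of female KO, male KO and male WT, for regions grouped by the other marks of female WT; error bars are exact 95% binomial intervals over regions. For H3K4me1 alone the bars stand at 82.9%, 68.8% and 36.7%, and for H3K4me1 with H3K27ac at 39.1%, 20.9% and 5.05%.

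The members fell mainly into a pair of combinations. The commonest, with 8106 regions or 33.3% of the members, was presence in male WT and absence from both KO lists, which 19.6% of all H3K4me1 regions showed. Next came 7225 members, or 29.7%, in no other list, against 15% of all regions. Presence in all 4 lists was found for 2462 members, or 10.1%, against 41.2% of all regions. A further 3779 members, or 15.5%, were missing from female KO alone, against 13.4% of all regions, and 1045, or 4.30%, from male KO alone, against 3.48%. These shares lie near the background. Of the members in both WT lists, 52.7% [51.9 to 53.5] were missing from both KO lists, against 25.2% of all H3K4me1 regions so chosen.

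Members missing from female KO were more often missing from male KO too. This is a description, since both lists were read on the same WT regions. Among members of both WT lists, male KO lacked 68.2% [67.4 to 69.0] of those missing from female KO and 29.8% [28.3 to 31.3] of those kept there. The difference of 38.4 points was 36.9, 38.5 and 38.6 points in 3 classes of these members with few, middling and many reads. Members in all 4 lists had more reads in female WT, with a median of 98, than those in no other list, with a median of 60. Those missing from both KO lists and present in male WT stood between, at 83 reads. The median gap to H3K27ac was 8900 bp for members in all 4 lists, 16800 bp for members in no other list, and 18600 bp for those of both WT lists alone.

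**Figure D2:**
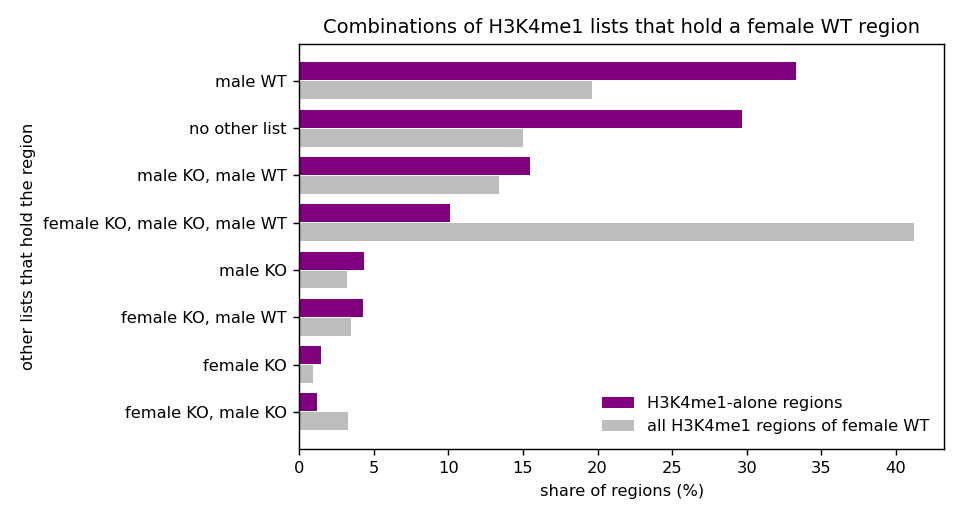
Share of regions (%, horizontal axis) in each combination of the other H3K4me1 lists, for H3K4me1-alone regions (purple) and for all H3K4me1 regions of female WT (grey). Members held by male WT alone make up 33.3% and members in no other list 29.7%, while 10.1% of members and 41.2% of all regions are held by every list.

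The leading regions are examples picked by their reads and are not typical members. The 8106 members present in male WT and missing from both KO lists had medians of 83 reads and 2600 bp. Positions are in the mouse build mm9, counting from 1. Among members present in male WT and missing from both KO lists, the one with the most reads was chr19:28655601-28689400. It spanned 33.8 kb with 2141 reads in female WT and met a male WT region of 776 reads over 18.4 kb. It lay 4.20 kb from an H3K27ac region and held a KDM6A region of female WT with 80 reads, but no MLL4 region of either line. Next came chr7:81661001-81687600, with 1320 reads in female WT and 1759 reads in the male WT region that covered its whole 26.6 kb. The third, chr11:117191001-117212400, had 1215 reads in female WT and 946 reads in the male WT regions on it. The fourth, chr15:76944601-76963400, had 1196 reads and also held a KDM6A region of female WT, with 146 reads. The last of these 5, chr4:99914601-99936800, had 1074 reads over 22.2 kb, of which male WT covered 5.80 kb. These 5 regions were between 18.8 and 33.8 kb long.

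The leading members kept in all lists were of similar length, and female KO covered most of them in part. The leader, chr2:154628201-154659800, had 1505 reads over 31.6 kb in female WT. Female KO covered 8.80 kb of it, male KO 20.8 kb and male WT 19.8 kb. At chr4:82107401-82134400, with 1429 reads, female KO covered 4.60 of 27 kb, and at chr17:32368401-32395800, with 1059 reads, 10 of 27.4 kb. The exception was chr4:58896601-58921000, with 1053 reads, where the female KO region of 998 reads covered 22.6 of 24.4 kb and male KO 4.40 kb. This region lay 2.40 kb from H3K27ac. At chr1:82840001-82867600, with 1048 reads and 1.20 kb from H3K27ac, female KO covered 2.80 kb and male KO 0.800 kb, and 5 MLL4 regions of female KO lay on it.

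The members found in no other list reached fewer reads. Their leader was chr19:57164401-57179400, with 710 reads over 15 kb, followed by chr19:23128801-23138800 with 619 reads and chr15:25613201-25627600 with 608 reads. The fourth was chr6:54225801-54236200, with 586 reads, 39.2 kb from H3K27ac, and the fifth chr19:46539201-46548600, with 543 reads. Of these 5, 3 lay on chromosome 19 and 1 on chromosome 15, the chromosomes where the KDM6A and MLL4 lists of female WT hold a surplus of regions. Of the 100 members with the most reads, 30 lay on these chromosomes, and of all members 6.86%. Without chromosomes 15 and 19 female KO lacked 82.6% of the members, male KO 68.9% and male WT 36.9%. The part of these chromosomes among the leading members was not tested. Among the 100 members with the most reads, female KO lacked 69, male KO 46 and male WT 4. Of all H3K4me1 regions, with any number of reads, these lists lacked 51.1%, 39.0% and 22.3%. Shares for other H3K4me1 regions of like reads are not given for comparison.

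Absence varied little with reads and length in female KO and much in male WT. By reads in female WT, members were sorted into classes of 15 to 57, 58 to 102 and 103 to 2141 reads. Female KO lacked 85.8%, 83.9% and 79.0% of the members in these classes, male KO 76.6%, 69.7% and 60.0%, and male WT 51.0%, 38.7% and 20.2%. From the low to the high class, the share missing thus differed by 6.78 points [5.61 to 7.94] in female KO and by 30.8 points [29.4 to 32.2] in male WT. In the high class female KO held 21.0% of the members and male WT 79.8%. By length, with classes up to 1800 bp, of 2000 to 3000 bp and from 3200 bp, female KO lacked 85.8%, 83.7% and 79.0%. Male KO lacked 75.3%, 69.5% and 61.0% in the same classes, and male WT 48.0%, 37.5% and 23.8%. Short members were missing from female KO 6.81 points [5.63 to 7.99] more often than long ones. Where at least 50% of a member had to be covered, the differences in female KO were 1.76 points by reads and 0.594 points [-0.449 to 1.64] by length.

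Counted at 1 bp overlap, length and read density each went with absence. With 50% of a member covered, the difference by length in female KO was 0.594 points, as given above, and the classes below were read at 1 bp alone. Among members of at most 29.4 reads per kb, female KO lacked 86.7% of the short, 85.1% of the middle and 82.4% of the long ones. Among members of the highest class, up to 88.3 reads per kb, it lacked 84.4%, 82.0% and 76.4%. Male WT lacked 53.9% of the short members of low density and 12.8% of the long members of high density.

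**Figure D3:**
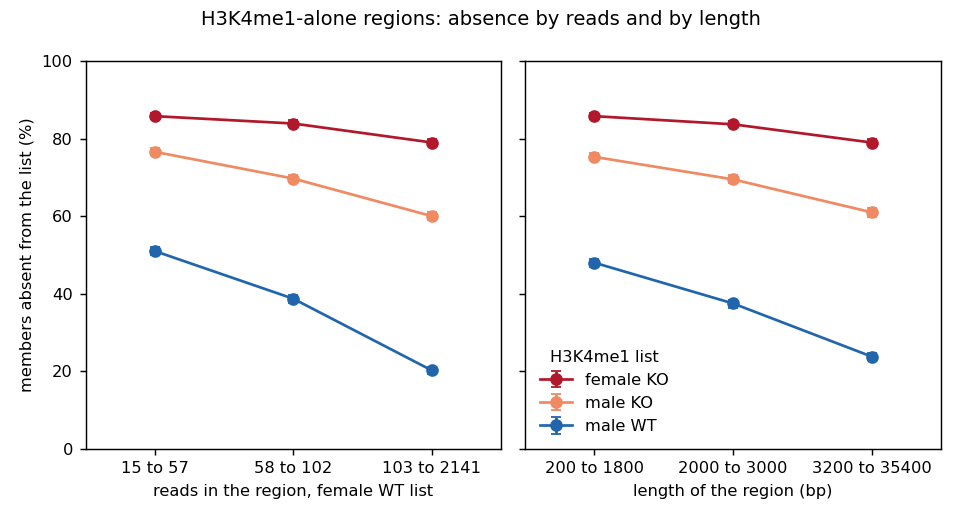
Share of H3K4me1-alone regions (%, vertical axis) absent from the H3K4me1 lists of female KO, male KO and male WT, by class of reads (left) and of length in bp (right) in female WT; error bars, mostly smaller than the points, are exact 95% binomial intervals. The female KO line lies between 85.8% and 79.0% in both panels, and the male WT line between 51.0% and 20.2% by reads.

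The distance to acetylated chromatin went with the share kept in female KO, which was highest near H3K27ac, while male WT differed less between classes. From under 2 kb to 500 kb or more from the nearest H3K27ac region, 8 distance classes were read. Female KO held 39.2% [37.1 to 41.4] of the 2100 members under 2 kb away, 21.1% of those at 2 to 10 kb and 14.3% of those at 10 to 20 kb. It held 12.3% at 20 to 50 kb, 10.9% at 50 to 100 kb and 9.38% at 100 to 200 kb. At 200 to 500 kb it held 8.06%, and at 500 kb or more 8.46% [6.26 to 11.1] of 544 members. Male KO held 45.3% of the members under 2 kb away and between 27.1% and 32.0% in each other class. Male WT held 69.5% under 2 kb away and between 60.9% and 69.4% elsewhere, with no steady order. Median reads were 71 in the nearest and 67 in the farthest class.

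Set as far (100 kb or more, 3189 members) against near (under 10 kb, 9481 members), female KO lacked 91.3% and 74.9%, a difference of 16.4 points [15 to 17.7]. Far members were missing more often than near ones in each class of reads, at 93.5% and 77.7%, 91.5% and 75.7%, and 88.2% and 71.3%. From male WT, far members were missing less often than near ones, at 31.5% and 37.2%. Among members of male WT, male KO lacked 62.9% of the far and 56.6% of the near ones, a difference of 6.39 points [3.99 to 8.76]. Some members near H3K27ac were met by KO regions that also covered a neighbouring H3K4me1 region. Of the kept members near H3K27ac, 38.6% [36.6 to 40.6] in female KO met a region that also touched an H3K4me1 region outside the members, and of the far ones 1.08% did. Not counting such regions, female KO held 8.65% of the far and 16.5% of the near members, and the difference in absence was 7.80 points [6.54 to 9.0]. In that setting, which was chosen after seeing the data, the difference for male KO among members of male WT was -1.54 points [-4.01 to 0.904]. Its sign turned, with an interval that includes 0. Such regions of male WT were not counted either, which left 2165 far and 4627 near members for the male KO comparison. Male WT in that setting lacked 32.1% of the far and 51.2% of the near members, a difference of -19.1 points [-21.0 to -17.2] against -5.65 as first counted. With compared lists cut to their upper part by reads, male WT differed by -1.46 points [-3.43 to 0.50]. With no other mark allowed within 5 kb of a member the difference was 9.42 points in female KO and 1.54 points [-1.46 to 4.54] in male KO among members of male WT.

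H3K4me3, the mark of promoters, was also considered. Near members that also had an H3K4me3 region within 10 kb were kept in female KO in 28.5% of 6336 cases [27.4 to 29.6], and those without in 18.3% of 3145 [16.9 to 19.7]. The 401 members with H3K4me3 less than 1 kb away were kept in female KO in 53.4% [48.3 to 58.3], in male KO in 63.8% and in male WT in 68.6%. At 100 kb or more from H3K4me3 the shares were 9.31%, 30.3% and 69.3%. KO regions that also touched other H3K4me1 regions were counted here, and shares without them are not given by distance to H3K4me3. For H3K27me3 the female KO shares were closer. They were 18.4% among 461 members less than 1 kb away and 15.8% among 11597 members at 100 kb or more.

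**Figure D4:**
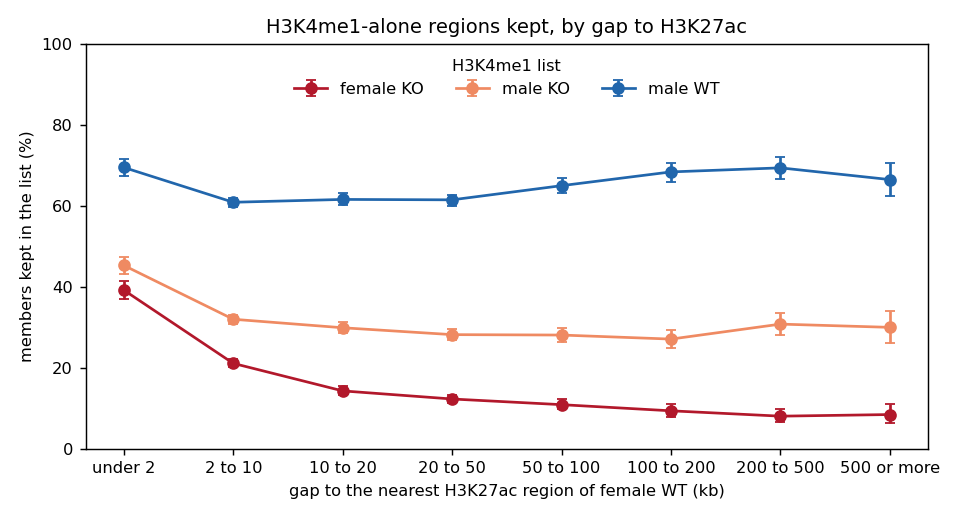
Share of H3K4me1-alone regions (%, vertical axis) kept in the H3K4me1 lists of female KO, male KO and male WT, by the gap in kb to the nearest H3K27ac region of female WT; error bars are exact 95% binomial intervals. The female KO line runs from 39.2% under 2 kb to 8.46% at 500 kb or more, while the male WT line stays between 60.9% and 69.5%.

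Kept members were covered for most of their length. The median covered share was 80.0% in female KO, 83.3% in male KO and 92.9% in male WT, and at least 50% was covered in 77.5%, 82.1% and 92.1% of the kept members. The 4218 female KO regions on members, 12.0% of that list, had a median of 97 reads against 112 in the whole list. In male WT the regions on members stood above their list, with a median of 145 reads against 130. Ranked within its own list by reads, the region on a kept member stood at a median percentile of 45.8 in female KO and 57.5 in male WT. In the female WT list all members stood at a median percentile of 38.4, those kept in female KO at 45.7 and those missing from it at 37.2.

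KDM6A and MLL4 regions were rare on H3K4me1-alone regions. The KDM6A list held 5961 regions in female KO and 2847 in female WT. The MLL4 list held 13152 in female KO and 2130 in female WT, so the overlaps below are not at equal list size. KDM6A of female KO, a line labelled as lacking the protein, overlapped 500 members, or 2.06% [1.88 to 2.24], where 4.58% of all H3K4me1 regions were overlapped. KDM6A of female WT overlapped 400 members, or 1.65% [1.49 to 1.81], against 2.97% of all regions. MLL4 of female KO overlapped 925 members, or 3.80% [3.57 to 4.05], against 11.8%, and MLL4 of female WT 183 members, or 0.753% [0.648 to 0.869], against 2.55%. None of the 4 lists touched 22587 members, or 92.9%, against 83.5% of all H3K4me1 regions. Members with a binding region were longer, at a median of 3600 bp with KDM6A of WT and 2400 bp without. These members were unevenly spread: chromosomes 1, 6 and 17 held 49.4% of the members with KDM6A of KO and 51.6% of those with MLL4 of KO, against 15.4% of all members. Chromosomes 15 and 19 held 38.2% of the members with KDM6A of WT and 41.5% of those with MLL4 of WT, against 6.86% of all members. Without these 5 chromosomes KDM6A of WT overlapped 1.09% and MLL4 of WT 0.455% of the members. The shares also moved by over 1.5 times with the number of regions in the lists, to 2.58% and 1.27% with H3K4me1 lists of equal number and to 0.876% and 0.370% with binding lists cut to their upper part.

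With and without KDM6A of WT, members were missing from female KO at close shares. Female KO lacked 82.8% of the members with KDM6A of WT and 83.0% of those without, a difference of -0.202 points [-4.24 to 3.22]. For MLL4 of WT the values were 81.4% and 83.0%, a difference of -1.54 points [-7.82 to 3.45]. On the 15 chromosomes without the surplus the difference was -0.491 points [-6.31 to 4.16] for KDM6A and -8.23 points [-18.4 to -0.173] for MLL4, with 86 members in that count. In male KO, among members of male WT, absence with minus without KDM6A of female WT was -10.1 points [-15.8 to -4.51], and with minus without MLL4 of female WT -9.21 points [-17.2 to -1.25]. These members had more reads, with a median of 143 for KDM6A of WT against 75 without it. In the low, middle and high class of reads the difference in male KO for KDM6A of WT was 1.98 [-16.6 to 16.3], -16.4 [-28.9 to -3.14] and -6.32 points [-12.9 to 0.327]. For MLL4 of WT it was -20.5 [-44.7 to 6.08], -4.16 [-23.9 to 13.7] and -5.06 points [-14.1 to 4.03].

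With the binding lists of the KO line the shares lay further apart. Female KO lacked 54.8% of the members with MLL4 of KO and 84.1% of those without, a difference of -29.3 points [-32.5 to -26.0]. It was -28.1, -31.6 and -26.3 points in the low, middle and high class of reads, and -41.1 points [-45.8 to -36.3] on the 15 chromosomes without the surplus. The MLL4 and H3K4me1 lists compared here came from the same KO line. Shares with and without a binding region are not given for all H3K4me1 regions. The differences for the binding lists of KO and of WT thus have no background. In the male KO line, which had no binding list, absence among members of male WT was 35.7% with MLL4 of female KO and 60.7% without, a difference of -25.0 points [-28.4 to -21.5]. Members with MLL4 of female KO were also missing from male WT less often, at 17% against 37.5%. For KDM6A of KO the difference in female KO was -17.3 points [-21.6 to -13.3], with 66.0% missing with and 83.3% without. MLL4 of KO also lay on 32.6% of the members with KDM6A of KO and on 3.20% of those without. Its part in that difference was not tested. With MLL4 of either genotype pooled, female KO lacked 59.5% with and 84.1% without.

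**Figure D5:**
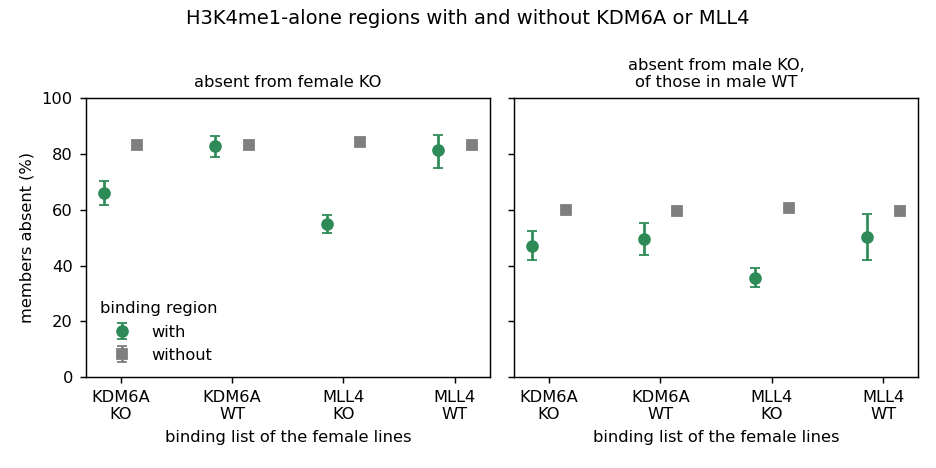
Share of H3K4me1-alone regions (%, vertical axis) absent from female KO (left) and, among members of male WT, from male KO (right), for members with (circles) and without (squares) a region of the KDM6A or MLL4 lists of the female KO and WT lines; error bars are exact 95% binomial intervals. In the left panel members with MLL4 of KO stand at 54.8% against 84.1%, while those with KDM6A of WT stand at 82.8% against 83.0%.

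Both KDM6A and MLL4 of female WT lay on 38 members. The leader was chr19:41580201-41599200, with 1040 reads over 19 kb in H3K4me1 of female WT. It held KDM6A regions of 132 reads and an MLL4 region of 67 reads in female WT, and regions of both antibodies in female KO as well. Female KO kept 7.60 kb of its H3K4me1, male KO none, and male WT covered all of it. The second, chr19:28638601-28653000, with 907 reads, neighbours the leading region missing from both KO lists and was missing from both too. The member at chr6:54225801-54236200, named above as present in no other list, carried a KDM6A region of 44 reads and an MLL4 region of 45 reads. At chr2:113373001-113381800, with 545 reads, and at chr1:128513001-128522400, with 535 reads, H3K4me1 was listed in male WT and in neither KO list. So 4 of these 5 were missing from both KO lists. Among all members, 33.3% were missing from both KO lists and listed in male WT, and a further 29.7% were in no other list. Of the 38 members with both KDM6A and MLL4, female KO lacked 78.9%, against 82.9% of all members.

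The members farthest from H3K27ac were ordinary in size. A pair on the X chromosome led, chrX:123596001-123598800 with 72 reads and chrX:122886001-122888000 with 61 reads, 2685 and 2668 kb from H3K27ac and in no other list. On chromosome 15, chr15:22661601-22663400 with 60 reads lay 2533 kb away and was listed in all lines, with 193 reads in the female KO region, 165 in male KO and 194 in male WT. Its neighbour chr15:22692001-22695200, with 122 reads, was in no other list. The fifth, chr2:87847001-87849000 with 66 reads, was listed in male WT alone. So 1 of these 5 was kept in both KO lists.

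Neighbouring members tended to be kept or missing together. In 5564 neighbouring pairs at most 5 kb apart, both were missing from female KO in 76.4%, both kept in 7.14%, and 1 kept in 16.5%. Beside a kept member the next was kept in 46.1% [42.7 to 49.5] of pairs, and beside a missing member in 9.63% [8.80 to 10.5]. The values were 49.2% and 20.8% in male KO and 72.7% and 45.5% in male WT. A single region spanned both members in 175 of the 397 pairs kept in female KO, 364 of 806 in male KO and 831 of 2478 in male WT. Pairs of other H3K4me1 regions are not given for comparison, so these shares have no background.

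Joined within 12.5 kb, the members formed 15382 groups, of which 10369 were single members. Groups of 5 or more numbered 435 and held 2711 members. Female KO lacked every member of 255 of these groups (58.6%), male KO of 123 (28.3%) and male WT of 24 (5.52%). Of all members these lists lacked 82.9%, 68.8% and 36.7%, and of all H3K4me1 regions 51.1%, 39.0% and 22.3%. Groups of other H3K4me1 regions are not given for comparison, so these counts have no background. Every member was kept in 2 groups in female KO, 9 in male KO and 58 in male WT. The groups with the most members, singled out after their values were seen, were chr6:28577601-28689800 with 18 members, of which female KO held 1, male KO 2 and male WT 7, and chr17:5026201-5142600 with 17, of which they held 4, 4 and 11. In chr4:6768401-6888800, with 14 members over 120 kb, neither KO list held any and male WT held 13. The same held for chr4:99784001-99875800, with 16 members, none in either KO list and 7 in male WT, and for chr2:102130401-102227400, with 14, none and 7.

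On the scale of 1 Mb, 335 windows had 20 or more members. The share kept in a window had a median of 14.3% in female KO, 29.2% in male KO and 64.3% in male WT, and 37 windows had none in female KO. The window with the most members was 24 to 25 Mb of chromosome 16, with 58 members of 78 H3K4me1 regions, of which female KO held 14, male KO 19 and male WT 37. On chromosome 4 the window of 99 to 100 Mb had 38 members, of which female KO held 0, male KO 2 and male WT 20. The next window there, 100 to 101 Mb, had 42, of which they held 3, 2 and 13. Chromosome 4 at 108 to 109 Mb went the other way in the male lines, with 32 of 42 members in male KO and 27 in male WT, and 6 in female KO. The highest share kept in female KO, 68.2%, was found at 51 to 52 Mb of chromosome 11, with 15 of 22 members at a median gap of 3.50 kb to H3K27ac. These windows were also chosen after their values were seen, and shares kept by window are not given for all H3K4me1 regions.

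All 20 chromosomes with regions had more members missing from female KO than from male WT, and more missing from male KO than from male WT. Over all H3K4me1 regions, too, each of them had more missing from female KO than from male WT. There, absence from female KO ran from 38.9% on chromosome 11 to 65.3% on the X chromosome. Absence from male WT ran from 12.3% on chromosome 11 to 44.8% on chromosome 14. All-region shares by chromosome are not given here for male KO. Among members, absence from female KO ranged from 74.0% on chromosome 5 to 89.3% on chromosome 12. From male KO it lay between 57.3% on chromosome 15 and 79.0% on chromosome 19, and from male WT between 24.6% on chromosome 1 and 56.3% on chromosome 14. Members made up between 33.0% of the H3K4me1 regions on chromosome 11 and 54.7% on chromosome 18. On the X chromosome, where Kdm6a itself lies, 472 of 894 H3K4me1 regions were members. Female KO lacked 86.4% of these members, against 65.3% of all H3K4me1 regions there. Male KO lacked 63.6% of the members, and male WT 29.2%, against 22.1% of all regions there missing from male WT.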

How the data were processed

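Mouse build mm9, SICER 1 and Bowtie 1.1.2 are named, without roles, per the submitters' processing notes. The authors deposited 1 list of regions per library, called per library, for 11 of 12 libraries; the input library was not used here. Each region has a deposited whole number, taken as its count of reads. No header names it; it was read so from its values and from borders at 200 bp steps. Smallest gaps between regions were 400 bp, but 600 bp for H3K27ac and 800 bp for H3K27me3, so marks were joined differently. Counts in regions depend on depth and threshold and were used to rank or class regions within a list. Counts printed for a named region in other lists total the whole regions that met it, parts outside it included. Such counts do not measure a change of signal between lines. Control, threshold and depth are not given in the sources used here.

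A member counted as kept in a list where at least 1 bp overlapped, otherwise as missing or absent. Classes of reads and length were 3 classes of about equal size. Gaps were counted in bases between borders, within chromosomes. Percentages given for all H3K4me1 regions are over the 56076 regions of female WT. With 1 library per group no test or p-value was computed. Named regions were the 5 with the most reads in each combination of lists and in overlap with both KDM6A and MLL4, and the 5 farthest from H3K27ac. Members, classes and rules were chosen with earlier results of these data known. The gene tables at hand describe GRCm38, so no gene was assigned and no sequence printed. Computation used scipy 1.17.1, pandas 2.3.3 and numpy 2.4.6 under Python 3.11.15, and matplotlib 3.10.9 drew the figures. Overlaps, covered bases and gaps were checked on simulated regions and against bedtools 2.31.1.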

Additional observations from a re-analysis of the deposited data

Results flagged for a closer look

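The difference by distance to H3K27ac had unlike signs in the female and male KO lists once regions that also touch other H3K4me1 regions were not counted. Absence of far members minus absence of near members was 7.80 percentage points [6.54 to 9.0] in female KO, over all members. In male KO it was -1.54 points [-4.01 to 0.904], over the 2165 far and 4627 near members still listed in male WT. The sets of members compared thus differ. With all regions counted, the differences were 16.4 points in female KO and 6.39 points in male KO. The male interval includes 0 in the setting without such regions, and with 1 library per group the difference between the line pairs was not tested.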

How the results depend on the processing

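Of 98 values under the alternatives, 33 stayed within the counting interval of the reported value, 64 moved without a change of sign, and 1 turned: far minus near H3K27ac in male KO among members of male WT, 6.39 points as reported, was -1.54 in the added setting. The order below is: members missing from female KO, from male KO and from both KO lists (both among members of male WT), from male WT, and then KDM6A and MLL4 of female WT. Reported were 82.9%, 59.5%, 52.7%, 36.7%, 1.65% and 0.753%. With 50% of a member covered they were 86.8%, 65.5%, 59.0%, 41.7%, 0.444% and 0.189%. With no other mark within 5 kb (16893 members) they were 87.2%, 61.0%, 56.0%, 37.8%, 1.87% and 0.888%. With compared lists cut to the upper part by reads they were 92.2%, 74.9%, 68.6%, 62.5%, 0.876% and 0.370%. With lists of equal number the values that moved were 80.4%, 61.9%, 44.2% (male WT), 2.58% and 1.27%. With regions joined within 5 kb they were 85.1%, 57.2%, 32.1% (male WT), 2.23% and 1.15%. Without chromosomes 1, 6, 15, 17 and 19 they were 58.7% (male KO), 37.8% (male WT), 1.09% and 0.455%. Not counting regions that reach into other H3K4me1 regions, a setting added after seeing the data, they were 86.4%, 62.4%, 56.3% and 42.5%.

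In female KO, the difference of low minus high reads (6.78 points) was 1.76 with 50% covered, 7.99 with no mark within 5 kb, 4.66 with cut lists, 9.08 joined, 5.37 by reads per kb and 8.13 in the added setting. Short minus long (6.81) was 0.594, 4.75 with cut lists, 5.55 with equal number and 8.36 joined. Far minus near (16.4) was 11.4 with 50% covered, 9.42 with no mark within 5 kb, 10.9 with cut lists, 11.6 joined, 13.6 for 200 kb or more against under 20 kb, and 7.80 in the added setting. In male KO far minus near was 3.12 with 50% covered, 1.54 with no mark within 5 kb, 9.83 with cut lists, 3.51 joined and 3.30 for 200 kb or more against under 20 kb. In male WT (-5.65) it was -9.67 with 50% covered, -8.64 with no mark within 5 kb, -1.46 with cut lists and -19.1 in the added setting. The alternatives of these male differences were all added after seeing the data. In female KO, with minus without MLL4 of either genotype (-24.6) was -27.8 with 50% covered, -17.8 with cut lists and -35.5 without the 5 chromosomes. Causes of these shifts were not tested. On autosomes alone no value moved beyond its interval.

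No paired analysis was possible because each group holds 1 library, so no library was left out in turn. Depth limits all shares, and total reads per library are unknown here.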
